A study of Mus musculus with 6 samples.

Results

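The semaphorins, plexins and neuropilins were examined in RNA-seq counts from mouse palatal shelves. The set was taken by gene symbol, as every semaphorin of classes 3 to 7, every plexin and both neuropilins, and it comprised 31 of the 23366 genes listed in the files: 20 semaphorins, 9 plexins and 2 neuropilins. The shelves were dissected at E14.25 from knockout embryos, labelled Kmt2d fl/fl Wnt1-Cre, and from wild type embryos, labelled WT, with 3 libraries in each group. The knockout (KO) libraries are numbered 1, 2 and 3 and the WT libraries 2, 3 and 4, and the labels call them biological replicates without naming litters. P-values therefore measure the spread between these libraries. Kmt2d encodes a histone methyltransferase, and Wnt1-Cre drives recombination in the neural crest. The epithelium, endothelium, skeletal muscle and blood of a KO shelf therefore lie outside the targeted lineage. The labels do not say whether WT embryos carried Cre or a floxed allele. The comparison addresses which transcripts of the palatal shelf differ when the crest lineage lacks Kmt2d.

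Semaphorins are guidance proteins that share an extracellular sema domain. Class 3 members are secreted, members of classes 4 to 6 span the membrane and Sema7a is anchored to it by a lipid. Plexins are their main receptors and act on the cytoskeleton and on integrin adhesion through small GTPases. Most class 3 ligands bind a plexin together with a neuropilin, whereas Sema3e can bind Plxnd1 directly. In the embryo these genes steer axons, growing vessels and migrating neural crest cells, and Sema3f acting through Nrp2 is one of the cues that keep crest cells in separate streams.

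Read pairs assigned to genes numbered 12722000 to 20203300 in the KO libraries and 20785100 to 24916100 in the WT libraries. The ribosomal RNA gene Rn45s took 35.1%, 18.6% and 30.0% of them in KO replicates 1, 2 and 3, against 16.2% to 20.7% in the WT libraries. Rn45s was at a log2 fold change of 0.83 (edgeR, adjusted p = 0.348), and without KO replicate 2 it rose 2.15-fold (adjusted p = 0.0424). With Rn45s and Lars2 left out, Sema3f kept its call (log2 fold change -0.81, adjusted p = 0.0372). Levels are given as CPM, the count scaled to the normalised library size. The targeted gene, listed as Mll2, stood at 254, 539 and 193 CPM in KO replicates 1, 2 and 3, against 197, 211 and 171 CPM in WT replicates 2, 3 and 4 (edgeR quasi-likelihood test, adjusted p = 0.368). The count covers the whole gene and all cell types and does not check the genotype labels. KO replicate 2 stood apart: its log CPM correlated with the other 5 libraries at 0.922 to 0.942, against 0.967 to 0.987 among those 5, a description across genes, which are not independent replicates. Pairs that matched no counted feature made up 47.5% of this library, 14.20% and 18.1% of the other KO libraries and 12.3% to 15.4% of the WT libraries. Results are therefore given with and without it. KO replicate 2 was the highest or lowest of the 6 libraries for 19 of the 31 genes, and for 71.0% of all genes tested. The mesenchymal identity of the tissue was checked with 9 palatal mesenchyme markers, all detected, whose summed level was 1668, 1919 and 1689 CPM in the KO libraries and 1501, 1497 and 1540 CPM in the WT libraries, with no overlap. Of these markers 4 had positive and 5 negative log2 fold changes. Prrx1, the most abundant, was the only one whose groups did not overlap. It had 773, 948 and 682 CPM in KO libraries and 562, 630 and 582 CPM in WT libraries.

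All 31 genes were transcribed in WT shelves at a level that could be tested. Levels of different genes were compared as CPM per kilobase. Scaled by the median length of each gene's annotated transcripts, the 5 highest were Plxnb2 at 438 ± 19.95, Plxna1 at 305 ± 19.6, Plxnd1 at 267 ± 9.23, Plxnb1 at 141 ± 11.2 and Sema3f at 90.3 ± 8.11 CPM per kilobase (SD, n = 3 WT libraries). Each of the 4 plexins stood above the next gene in all WT libraries, while the range of Sema3f overlapped that of Sema5a. Over the whole order, 17 of 30 neighbouring pairs had overlapping WT ranges. The order depended on the length used, since the median transcript is much shorter than the longest in several plexins (0.542 kb and 6.91 kb for Plxnd1). Scaled by the longest transcript, the 5 highest were Plxnb2 at 55.9, Nrp1 at 36.5, Nrp2 at 32.5, Sema3d at 28.0 and Plxna1 at 23.8 CPM per kilobase. Scaled by all annotated exons, they were Plxnb2 at 47.0, Plxna1 at 23.8, Sema3d at 20.6, Plxnd1 at 19.8 and Nrp2 at 18.5 CPM per kilobase. Plxnb2, a receptor for several class 4 semaphorins, was the most abundant of the 31 genes by each of the 3 lengths, and Plxnb3, a receptor for Sema5a, the least. Sema3b, Sema3g and Sema7a ranked between 27 and 30 of the 31 by each length. 

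**Figure D1:**
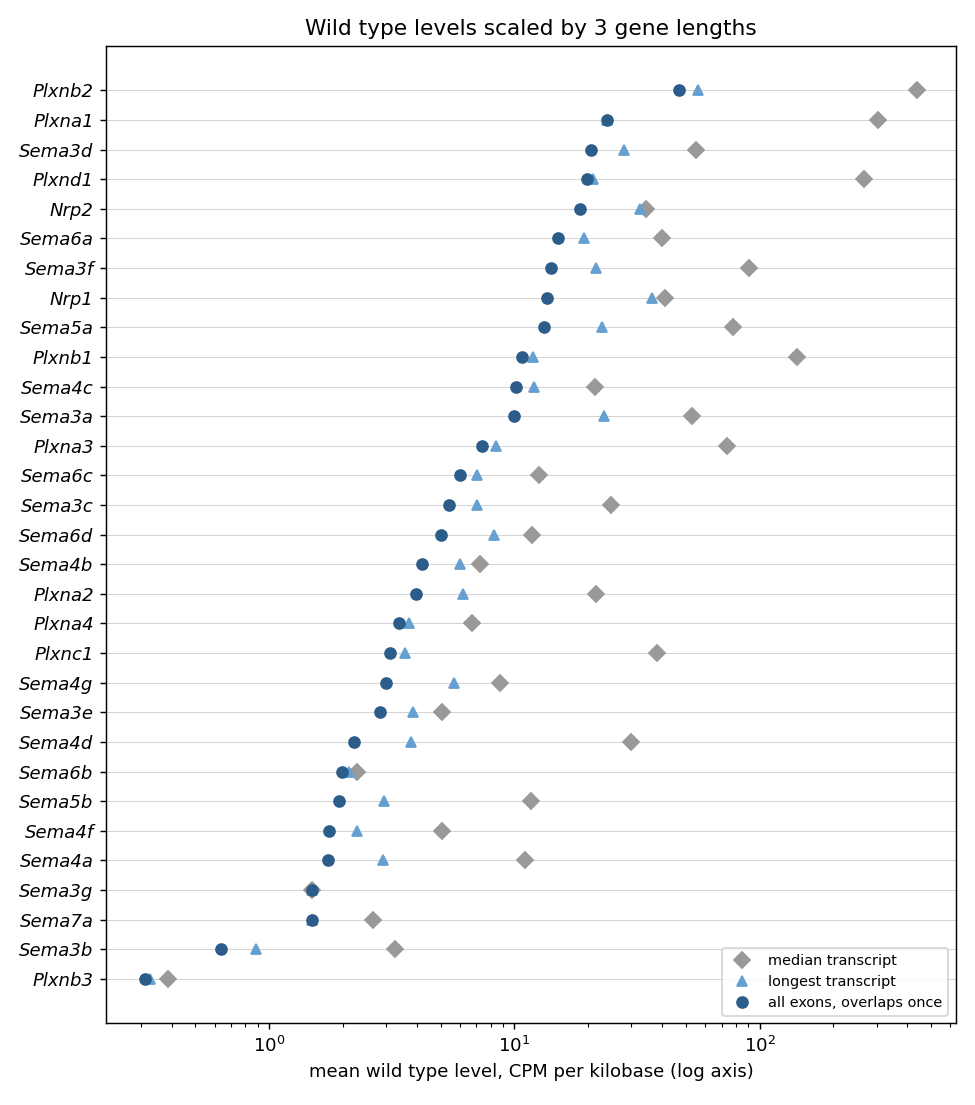
Mean level of each gene over 3 WT libraries in CPM per kilobase on a log axis, scaled by the median transcript, the longest transcript or all exons with overlaps counted once. Genes are ordered by the exon scale. Plxnb2 is highest and Plxnb3 lowest by all 3 lengths, while the plexins with short median transcripts lie far to the right on that scale only.

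Sema3f RNA fell in the KO shelves, and the other 30 genes did not pass the threshold with all 6 libraries (edgeR quasi-likelihood test, Benjamini-Hochberg adjusted p under 0.05 over 14233 genes). The count of 1 of 31, lower in the KO, stands beside 0.534% of all genes tested, 0.0984% higher and 0.436% lower. At an unadjusted p under 0.05 there were 9 of the 31, 4 higher and 5 lower, beside 14.20% of all genes. Without KO replicate 2, 5 of the 31 genes passed, Sema3b, Sema3c, Sema3f and Sema4b lower and Sema3e higher in the KO, beside 2.12% of all genes, 0.547% higher and 1.57% lower. DESeq2 on all 6 libraries called 4 of the 31, Sema3f and Sema4b lower and Sema3e and Sema6a higher, beside 2.94% of all genes. KO and WT libraries did not overlap for 11 of the 31 genes, 4 higher and 7 lower in the KO. Over all genes tested, 23.5% did not overlap, 12.3% higher and 11.2% lower. The log2 fold change of KO over WT was positive for 10 and negative for 21 genes, with a median of -0.14 (-0.19 without KO replicate 2), where all genes tested had a median of 0.011. The summed level of the 31 genes was 2416, 2612 and 2350 CPM in KO replicates 1, 2 and 3 and 2582, 2482 and 2342 CPM in WT replicates 2, 3 and 4, so the groups overlapped.

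**Figure D2:**
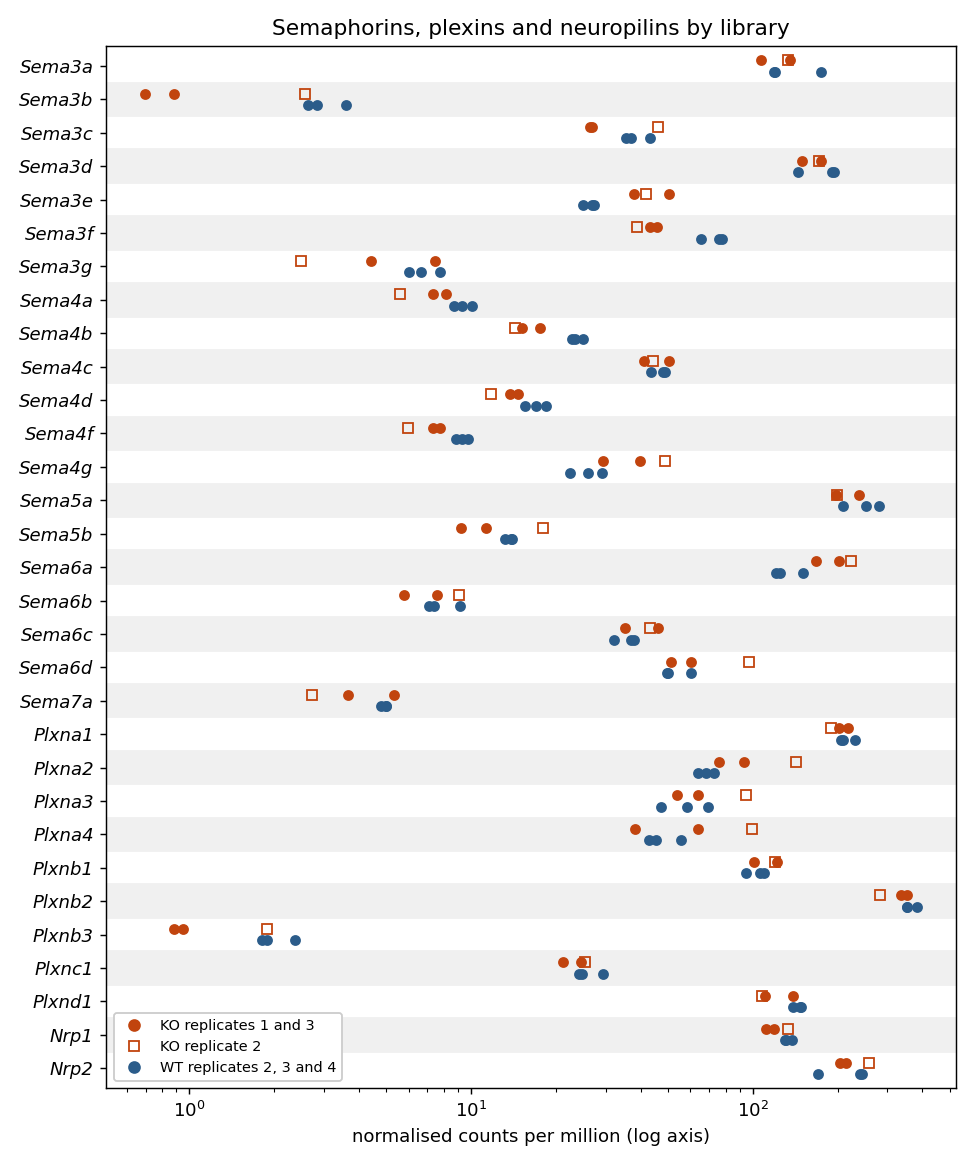
Normalised CPM of each gene in each library on a log axis, with KO libraries above WT libraries in each row. Sema3e and Sema6a show all KO libraries to the right of all WT libraries and Sema3f and Sema4b all to the left, while the open square of KO replicate 2 stands at the edge of the row for 19 of the 31 genes.

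**Figure D3:**
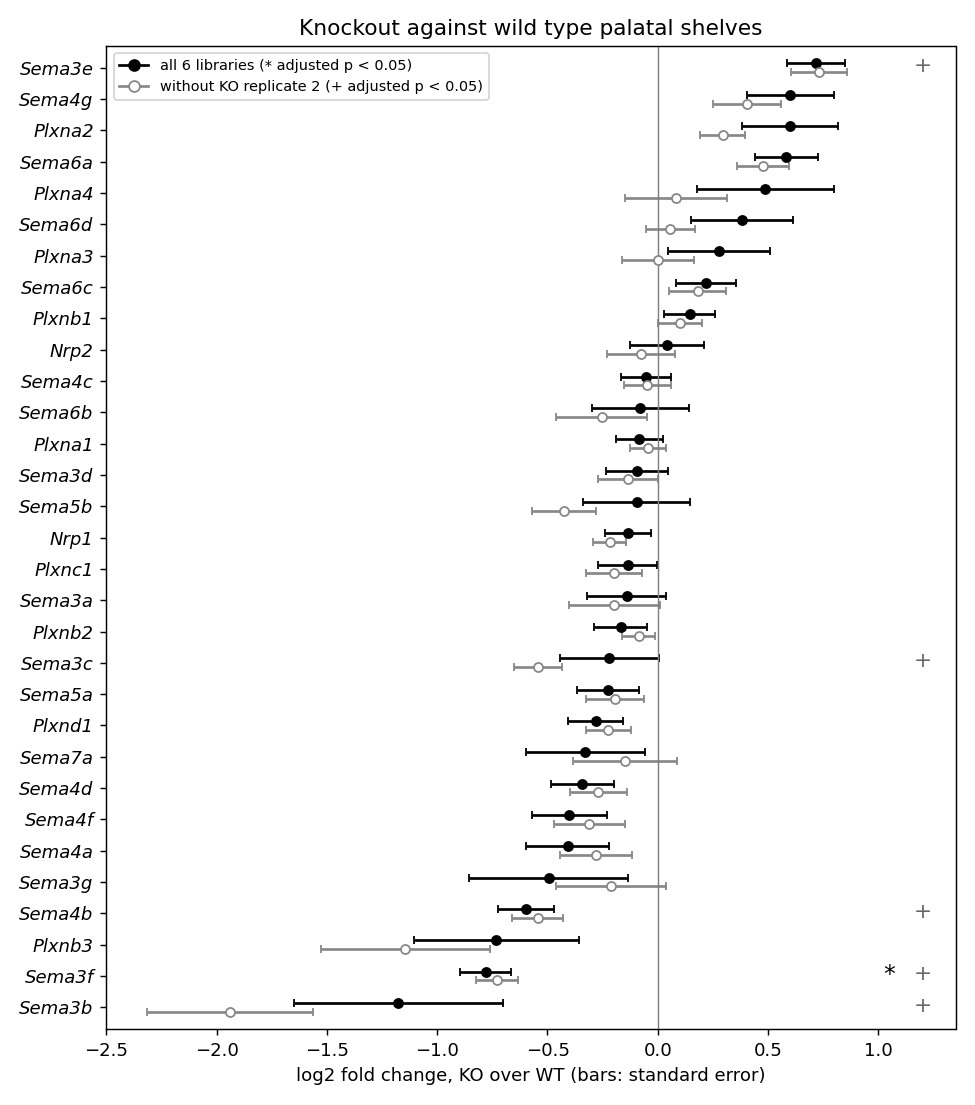
Log2 fold change of KO over WT with its standard error, from all 6 libraries (filled) and without KO replicate 2 (open). Sema3f is marked as passing in both fits, and Sema3b, Sema3c, Sema3e and Sema4b only without KO replicate 2.

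Sema3f, a secreted repellent that binds Nrp2, had 45.6, 38.8 and 43.0 CPM in KO replicates 1, 2 and 3, against 65.5, 75.8 and 77.7 CPM in WT replicates 2, 3 and 4. The highest KO library lay below the lowest WT library, and KO replicate 2 was the lowest of the 3. Sema3f was 1.72-fold lower in the KO (log2 fold change -0.78, SE 0.11, 95% interval -1.05 to -0.51, edgeR adjusted p = 0.0436). Without KO replicate 2 the log2 fold change was -0.73 (adjusted p = 0.00594). Leaving out any of the other 5 libraries ended the call (adjusted p = 0.0925 to 0.270), at log2 fold changes of -0.86 to -0.73. In these 5 fits at most 20 of all genes passed.

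Around Sema3f, gene order was read from RefSeq's GRCm38.p6 annotation, which is a later build than the mm9 of the counts. The 4 protein-coding genes on one side are Gnat1, Slc38a3, Gnai2 and Sema3b, and on the other Rbm5, Rbm6, Mon1a and Mst1r. Sema3b, another secreted class 3 ligand, had 0.696, 2.57 and 0.884 CPM in KO replicates 1, 2 and 3, against 3.59, 2.64 and 2.84 CPM in WT replicates 2, 3 and 4. KO replicate 2 nearly reached the lowest WT library, and the other KO libraries were well below, on counts of 11 and 16 read pairs. Its log2 fold change was -1.18 (SE 0.47, adjusted p = 0.336), and without KO replicate 2 Sema3b fell, by 1.94 on the log2 scale (adjusted p = 0.0322). Mst1r, a receptor tyrosine kinase related to Met, which can associate with B plexins, had 3.04, 3.25 and 1.10 CPM in KO libraries and 5.73, 5.20 and 4.69 CPM in WT libraries, with no overlap (log2 fold change -1.10, adjusted p = 0.297). Gnai2, a G protein subunit, also had lower values in the KO, at 228, 155 and 228 CPM against 258, 248 and 262 CPM in WT (adjusted p = 0.385). The RNA-binding genes Rbm5 and Rbm6, on the other side of Sema3f, had positive log2 fold changes of 0.42 and 0.25 (adjusted p = 0.361 and 0.470). KO replicate 2 was the highest library for both, and without it they were at 0.17 and 0.054. Slc38a3 and Mon1a were at -0.03 and 0.07, and Gnat1 was too low to test.

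Sema3e, the ligand of Plxnd1, had 50.4, 41.9 and 37.8 CPM in KO replicates 1, 2 and 3, against 25.0, 26.9 and 27.3 CPM in WT replicates 2, 3 and 4. Every KO library exceeded every WT library. Its log2 fold change was 0.72 (SE 0.13, 95% interval 0.41 to 1.02), which missed the threshold over all genes (edgeR, adjusted p = 0.0846). Without KO replicate 2 Sema3e rose 1.66-fold (adjusted p = 0.0187). Sema3e and Sema3f thus lay on opposite sides of WT in the same KO libraries. On the per-kilobase scale of the median transcript, the ratio of Sema3e to Sema3f was 0.171, 0.167 and 0.137 in KO replicates 1, 2 and 3, and 0.0593, 0.0552 and 0.0545 in WT replicates 2, 3 and 4. The ratio is given as a description, since both genes were singled out for their values. Its change between groups does not depend on the length used.

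Sema3c, a ligand needed for outflow tract development, had 26.9, 46.1 and 26.5 CPM in KO replicates 1, 2 and 3, against 43.0, 37.0 and 35.6 CPM in WT replicates 2, 3 and 4. KO replicate 2 was the highest of the 6 libraries and the other KO libraries the lowest. With all libraries the log2 fold change was -0.22 (adjusted p = 0.659), and without KO replicate 2 Sema3c fell 1.45-fold (log2 fold change -0.54, SE 0.11, adjusted p = 0.0366). The remaining class 3 ligands had overlapping groups. Sema3a, a repellent for sensory and sympathetic axons that binds Nrp1, had 107, 133 and 135 CPM in KO libraries and 174, 120.0 and 119 CPM in WT libraries, with a log2 fold change of -0.14 (95% interval -0.56 to 0.27). WT replicate 2 was high, and without it the value was 0.061. Sema3d, a secreted ligand of the developing heart and vessels, was at -0.10 (95% interval -0.42 to 0.23). Sema3g had 7.47, 2.50 and 4.42 CPM in KO libraries and 6.02, 6.63 and 7.75 CPM in WT libraries. KO replicate 1 lay inside the WT range and the other KO libraries below it (log2 fold change -0.49, adjusted p = 0.536). The value was -0.21 without KO replicate 2 and -0.95 without KO replicate 1. The class summed to 387, 437 and 422 CPM in KO libraries and 512, 460 and 415 CPM in WT libraries.

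The 250 bases before the RefSeq start of Sema3e and Sema3c are shown (build GRCm38.p6, chromosome 5, plus strand). They were chosen because these class 3 ligands of the same chromosome moved in opposite directions without KO replicate 2. Sema3a and Sema3d are on chromosome 5 as well, were at -0.20 and -0.13 in that fit, and are not shown. Sema3e lies at chr5:14025026-14025275 and Sema3c at chr5:17574566-17574815. Capitals mark the GC box letters GGGCGG on either strand.
Sema3e: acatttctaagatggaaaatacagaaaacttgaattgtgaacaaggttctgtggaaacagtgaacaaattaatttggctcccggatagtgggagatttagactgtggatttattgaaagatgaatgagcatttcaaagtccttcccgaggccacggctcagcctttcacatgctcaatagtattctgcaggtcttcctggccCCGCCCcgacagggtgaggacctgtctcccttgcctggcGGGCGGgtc
Sema3c: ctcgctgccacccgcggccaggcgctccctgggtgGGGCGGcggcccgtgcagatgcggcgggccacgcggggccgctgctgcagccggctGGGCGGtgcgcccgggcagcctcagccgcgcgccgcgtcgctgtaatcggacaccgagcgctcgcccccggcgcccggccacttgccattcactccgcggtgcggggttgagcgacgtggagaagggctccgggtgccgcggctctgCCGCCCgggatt

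The Sema3e stretch held 7 CG dinucleotides and 2 GC boxes, and the Sema3c stretch 39 CG dinucleotides and 3 GC boxes. Those of Sema3a and Sema3d held 2 and 4 CG dinucleotides and 0 GC boxes. Of the 31 genes, 26 were in the RefSeq promoter table, and Plxna1, Plxna4, Sema3b, Sema3f and Sema6a were not. For the 26, taking the start listed at the top for genes with several, the CG count ran from 2 to 39 with a median of 15.5, where all 32851 starts in the table had a median of 6. A GC box was present in 20 of the 26 and in 32.7% of all starts. The TATA box letters TATAAA, searched on both strands, occurred in 0 of the 26 and in 12.4% of all starts. These matches describe the letters in the window and do not show binding.

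**Figure D4:**
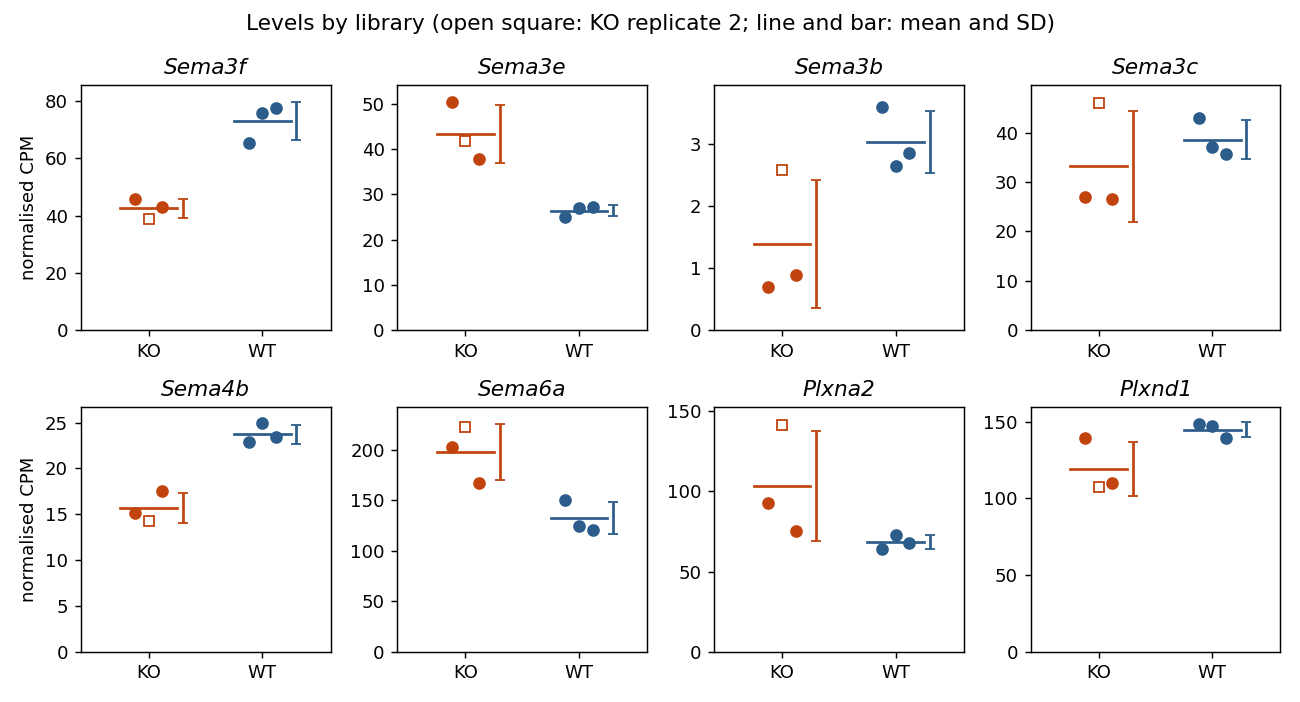
Normalised CPM on a linear axis for 8 genes, one point per library, with the KO group left of the WT group and the mean and SD of each group. Sema3f, Sema4b, Sema3e and Sema6a separate the groups with KO replicate 2 on the side of the other KO libraries, whereas Sema3c in KO replicate 2 lies above all WT libraries.

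Class 4 semaphorins are membrane ligands of B plexins and, in immune cells, of other receptors. Of the 6 members, 0 passed with all libraries (edgeR). At an unadjusted p under 0.05 there were 4, beside 14.20% of all genes. DESeq2 called Sema4b, beside 2.94% of all genes. The groups did not overlap for 1 member higher and 4 lower in the KO, beside 12.3% and 11.2% of all genes. The log2 fold change was negative for 5 of the 6 members. Sema4b had 15.2, 14.30 and 17.5 CPM in KO replicates 1, 2 and 3, against 22.9, 24.9 and 23.4 CPM in WT replicates 2, 3 and 4. All KO libraries were below all WT libraries (log2 fold change -0.60, SE 0.13, adjusted p = 0.127), and without KO replicate 2 Sema4b fell 1.46-fold (adjusted p = 0.0462). Sema4d, the ligand of Plxnb1, had 14.7, 11.8 and 13.8 CPM in KO libraries and 16.98, 15.6 and 18.5 CPM in WT libraries, again with no overlap (log2 fold change -0.34, adjusted p = 0.344). Both Sema4a, which also acts on T cells, and Sema4f had lower values in every KO library as well. Sema4a had 7.34, 5.60 and 8.12 CPM in KO libraries and 8.72, 10.1 and 9.26 CPM in WT libraries (log2 fold change -0.41, adjusted p = 0.372). Sema4f had 7.34, 5.98 and 7.73 CPM in KO libraries and 8.86, 9.77 and 9.26 CPM in WT libraries (log2 fold change -0.40, adjusted p = 0.348). Sema4g went the other way, with 39.6, 48.9 and 29.5 CPM in KO libraries and 29.3, 26.0 and 22.4 CPM in WT libraries. Its KO replicate 3 barely exceeded WT replicate 2, and KO replicate 2 was the highest library (log2 fold change 0.60, adjusted p = 0.280, and 0.40 without KO replicate 2). Sema4c, a ligand of Plxnb2, was at -0.05 (95% interval -0.32 to 0.22).

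Class 6 semaphorins are transmembrane ligands of A plexins. Sema6a had 203, 223 and 167 CPM in KO replicates 1, 2 and 3, against 150.1, 125 and 121 CPM in WT replicates 2, 3 and 4. The groups did not overlap, and the log2 fold change was 0.58 (SE 0.14, 95% interval 0.25 to 0.92), which missed the threshold (edgeR, adjusted p = 0.180, and 0.0875 without KO replicate 2). The class sum, 308, 371 and 268 CPM in KO libraries and 257, 219 and 210 CPM in WT libraries, also did not overlap, with Sema6a as its main part. Sema6d, a ligand of Plxna1 in the heart, had 51.2, 96.6 and 60.2 CPM in KO libraries and 60.1, 50.0 and 49.4 CPM in WT libraries. KO replicate 2 alone stood high, and the log2 fold change of 0.38 (adjusted p = 0.465) was 0.057 without it. Sema6c was at 0.22, and Sema6b at -0.08 (-0.25 without KO replicate 2). Sema5a, a ligand with thrombospondin repeats, had 197, 199 and 237 CPM in KO libraries and 279, 209 and 252 CPM in WT libraries, with overlap (log2 fold change -0.22, adjusted p = 0.478). Sema5b, its relative, was highest in KO replicate 2, at 18.01 CPM, while the other KO libraries, at 9.17 and 11.3 CPM, lay below the WT libraries at 13.2 to 13.95 CPM. Its log2 fold change was -0.10 (adjusted p = 0.873), and -0.43 without KO replicate 2. Sema7a was at -0.33 (95% interval -0.96 to 0.30), and at -0.15 without KO replicate 2.

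Among the receptors, 0 of the 11 plexins and neuropilins passed (edgeR). At an unadjusted p under 0.05 there was 1, beside 14.20% of all genes. DESeq2 called 0 of the 11, beside 2.94% of all genes. The median log2 fold change was -0.083 over the 11 receptors and -0.18 over the 20 semaphorins. Plxna2, a receptor of Sema6a, had the smallest p, with 92.9, 142 and 75.6 CPM in KO replicates 1, 2 and 3, against 64.1, 72.9 and 67.98 CPM in WT replicates 2, 3 and 4. The groups did not overlap, but KO replicate 3 lay close to the highest WT library (log2 fold change 0.60, SE 0.22, adjusted p = 0.317). Without KO replicate 2 it was 0.29 (adjusted p = 0.196). Plxna3 and Plxna4, which with neuropilins transmit class 3 signals to axons, were also highest in KO replicate 2. Plxna4 had 38.2, 99.5 and 63.9 CPM in KO libraries and 42.9, 55.5 and 45.3 CPM in WT libraries, and its log2 fold change of 0.49 was 0.084 without KO replicate 2. Plxna3 was at 0.28, and at 0.0011 without that library. The summed level of 9 neuronal markers was 85.5, 251 and 182 CPM in KO replicates 1, 2 and 3 and 131, 221 and 126 CPM in WT replicates 2, 3 and 4, so KO replicate 2 was the highest in these too. The part of nerve tissue in these values was not tested.

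Plxnd1, the endothelial receptor of Sema3e, had 139, 108 and 110.2 CPM in KO replicates 1, 2 and 3, against 148, 147 and 139 CPM in WT replicates 2, 3 and 4. KO replicate 1 reached the lowest WT library and the other KO libraries lay below (log2 fold change -0.28, SE 0.12, adjusted p = 0.357). Over 7 endothelial markers, which all had negative log2 fold changes and of which 0 passed (edgeR), the sums were 211, 167 and 195 CPM in KO libraries and 248, 234 and 229 CPM in WT libraries. In bulk tissue fewer cells of a type and less RNA per cell cannot be told apart. Plxnb2 had 353, 282 and 335 CPM in KO libraries and 353, 354 and 382 CPM in WT libraries, and all KO values lay below all WT values by a narrow margin (log2 fold change -0.17, 95% interval -0.45 to 0.11, and -0.087 without KO replicate 2). Plxnb1, the receptor of Sema4d, had 122, 119.7 and 101 CPM in KO libraries and 94.2, 109.97 and 106 CPM in WT libraries (log2 fold change 0.14, 95% interval -0.13 to 0.41). Plxna1, a receptor of class 3 and class 6 ligands, had 218, 189.7 and 202 CPM in KO libraries and 209, 231 and 205 CPM in WT libraries (log2 fold change -0.08, 95% interval -0.33 to 0.16). In both the groups overlapped. Plxnb3, on 15 to 53 counts per library, had 0.949, 1.89 and 0.884 CPM in KO libraries and 1.89, 2.38 and 1.81 CPM in WT libraries. KO replicate 2 reached the WT range and the other KO libraries lay below it (log2 fold change -0.73, adjusted p = 0.401, and -1.14 without KO replicate 2). Plxnc1, the receptor of Sema7a, was at -0.14 (95% interval -0.45 to 0.17).

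Nrp1, which binds Sema3a and also VEGF-A, had 119, 133 and 111 CPM in KO replicates 1, 2 and 3, against 138, 130.2 and 131 CPM in WT replicates 2, 3 and 4. KO replicate 2 lay inside the WT range and the other KO libraries below it (log2 fold change -0.14, 95% interval -0.38 to 0.11, adjusted p = 0.551, and -0.22 without KO replicate 2). Nrp2, the partner of Sema3f, had 204, 258 and 213 CPM in KO libraries and 241, 245 and 171 CPM in WT libraries. The groups overlapped and the log2 fold change was 0.042 (95% interval -0.35 to 0.43, adjusted p = 0.922). The interval of Nrp2 includes changes in either direction, and whether Nrp2 and Sema3f differed in their response was not tested.

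Of 49 further genes of semaphorin signalling, 46 could be tested and 0 passed with all libraries (edgeR). At an unadjusted p under 0.05 there were 6 of the 46, beside 14.20% of all genes, and DESeq2 called 1, beside 2.94% of all genes. These comprised co-receptors, VEGF ligands and receptors, collapsin response mediators, MICAL oxidases, and GTPases with their regulators. Their median log2 fold change was -0.042, with 22 positive and 24 negative. The smallest p belonged to Erbb2, a receptor kinase that associates with B plexins, with 79.2, 70.3 and 76.5 CPM in KO replicates 1, 2 and 3, against 97.7, 99.7 and 109.7 CPM in WT replicates 2, 3 and 4. The groups did not overlap (log2 fold change -0.44, adjusted p = 0.148), and without KO replicate 2 Erbb2 fell (log2 fold change -0.40, adjusted p = 0.0360). It was the 1 partner that passed in that fit, beside 2.12% of all genes. Rras, a GTPase inactivated by plexins, was next at a log2 fold change of -0.59, with 4.81, 5.37 and 5.75 CPM in KO libraries and 7.79, 7.17 and 8.95 CPM in WT libraries (adjusted p = 0.268). Met, the receptor of hepatocyte growth factor and a partner of Plxnb1, had 21.8, 15.8 and 14.9 CPM in KO libraries and 25.4, 24.2 and 24.5 CPM in WT libraries (log2 fold change -0.49, adjusted p = 0.285). For both Rras and Met the KO values lay below the WT values.

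Summed levels of markers of other cell types were compared in the same libraries. Over 8 epithelial markers the sums were 459, 266 and 472 CPM in KO replicates 1, 2 and 3, against 499, 562 and 622 CPM in WT replicates 2, 3 and 4. All 8 had negative log2 fold changes with all libraries, but Krt14 and Trp63 were at 0.12 and 0.036 without KO replicate 2. Over 6 macrophage markers, 5 of them negative, the sums were 40.0, 36.6 and 37.5 CPM in KO libraries and 58.9, 57.7 and 53.4 CPM in WT libraries. In both lists, as in the endothelial list, the sums did not overlap and were lower in the KO. The same held for 7 of the 31 genes and for 11.2% of all genes tested. With all libraries 0 of these markers passed (edgeR). At an unadjusted p under 0.05 there were 5 epithelial, 3 macrophage and 5 endothelial markers, beside 14.20% of all genes. Without KO replicate 2, 3 of 8 epithelial markers fell, Shh (log2 fold change -1.04, adjusted p = 0.0218), Krt18 (-0.58, adjusted p = 0.0471) and Cdh1 (-0.52, adjusted p = 0.0483). In that fit 1 of 6 macrophage markers fell, Mrc1 (-0.96, adjusted p = 0.0110), and 0 of 7 endothelial markers passed. These counts stand beside 2.12% of all genes in the same fit, 1.57% lower in the KO. Over 6 Schwann cell markers the sums overlapped, at 75.6, 63.1 and 57.6 CPM in KO libraries and 67.0, 70.2 and 70.3 CPM in WT libraries. Skeletal muscle markers summed to 1177 CPM in KO replicate 2, against 266 and 189 CPM in KO replicates 1 and 3 and 225 to 467 CPM in the WT libraries. Sums over 5 chondrocyte markers overlapped, at 293, 171 and 360 CPM in KO libraries and 1163, 391 and 348 CPM in WT libraries. Of these 5, 4 were negative with an unadjusted p under 0.05 (edgeR). Over all genes, 14.20% had such a p in either direction. With and without KO replicate 2, 0 passed. Col2a1, Acan and Matn1 had no overlap between groups (log2 fold changes -1.45, -2.52 and -3.31), and WT replicate 2 was their highest library. Sox9 was at 0.22. Sums over osteoblast and red cell markers overlapped as well. Of the markers in these lists, 1, the red cell gene Hba-a1, was at 0 in all libraries. The part of these cell types in the values of the semaphorins was not tested.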

How the data were processed

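The files hold raw counts of sequenced pairs for each gene symbol, deposited by the authors as 1 table per library, not normalised and not pooled. Libraries were prepared with a stranded mRNA kit and read as 25 bp from both ends, per the labels' protocols. The submitters' processing notes name TopHat2, SAMtools and HTSeq, with build mm9. Annotation, strand setting and versions were not given in the sources used here. Reads of Plxna1, Plxna4, Plxnb1 and Sema4c may therefore include those of antisense genes overlapping their exons. The 5 category rows that name no gene were left out of the fit and of library sizes, and their shares are given with the results. Groups and replicate numbers come from the titles. Libraries of a group were compared by chi-square over genes (11.0 to 153 per degree of freedom, above sampling noise), and each counts as 1 replicate. The labels name no batch.

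Counts were normalised by TMM and filtered with filterByExpr, which left 14233 genes. KO and WT were compared with edgeR 4.0.16 in R 4.3.3 (quasi-likelihood test, robust, no covariate), tested on simulated data. P-values were adjusted over all genes at 0.05, and standard errors were derived from the log2 fold change and its F statistic. Lengths came from GENCODE M21, and promoters and gene order from RefSeq. Alternatives were other size factors, DESeq2 1.42.0, limma 3.58.1 voom with quality weights, other filters, each library left out, the replicate number as a block, and Rn45s with Lars2 left out. The earlier edgeR method and exon lengths were added after seeing the data. Values of all libraries were to be given for members past the threshold, those with no overlap between groups, the 3 with the smallest p among ligands, plexins and neuropilins, and the 5 highest in WT. Further members given with all values, the genes beside Sema3f and the promoters were chosen after their values were seen. The members and lists were chosen with earlier results of these data known. Wilson 95% intervals of library shares reach at most 0.016 percentage points to either side and cover counting error only.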

Additional observations from a re-analysis of the deposited data

Results flagged for a closer look

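Each KO library had at least 1 category of pairs outside the gene counts whose share exceeded that of every WT library. The share of pairs that matched no counted feature was 18.1% in KO replicate 1 and 47.5% in KO replicate 2, against at most 15.4% in the WT libraries. The share of pairs with several alignments was 30.3% in KO replicate 1 and 27.7% in KO replicate 3, against at most 20.99% in the WT libraries. The values of the semaphorins, plexins and neuropilins rest on the remaining pairs, and the part of these shares in them was not tested.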

How the results depend on the processing

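The Sema3f log2 fold change lay between -0.86 and -0.72 over 15 alternatives and passed in 9, losing its call without any of 5 libraries and under the block. Counts of all genes called, 76 as reported, were 458 with DESeq2, 316 with voom and quality weights, and 0 to 306 with single libraries left out. The count of the 31 genes called, 1 as reported, was 4 with either tool (Sema3f, Sema4b, Sema3e and Sema6a) and 0 to 5 with single libraries left out, and the count of signalling partners called, 0 as reported, was 1 with either tool and 0 to 1. With the replicate number as a block, 298 genes and 0 of the 31 passed (edgeR, Sema3f adjusted p = 0.0599). In that fit KO replicate 1 and WT replicate 4 share their number with no other library. The estimated difference therefore rests on replicates 2 and 3 of each group, and its counts are not on a par with the fit of all libraries. Numbers 2 and 3 are shared, but the labels do not describe a pairing, so the number is not taken as one. Deviations of same-numbered libraries correlated at 0.21 and -0.14, which are too few pairs to decide it. Signs held in all alternatives for 25 of the 31 genes. Nrp2 turned to -0.059 with voom and -0.048 with the block, Plxna4 to -0.024 with voom and Sema5b to 0.071 with the block. With single libraries left out, Nrp2 ran from -0.11 to 0.13, Sema5b from -0.43 to 0.093, Sema4c from -0.14 to 0.011, Sema6b from -0.25 to 0.077 and Sema3a from -0.24 to 0.061. Of the 5 highest WT levels, 2 were shared with the longest transcript as length and 3 with exon length. The causes of these changes were not tested. Low counts limit Plxnb3 and Sema3b.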
